A study of Rattus norvegicus with 8 samples.

Results

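The genes described here are 10 inhibitors that feed back on the MAPK cascade and on the EGF receptor, followed in the rat hippocampus with and without corticosterone. They were taken by symbol from the deposited comparison of both treatments and comprise 4 Dusp genes, 3 Spry genes, 2 Spred genes and Errfi1. All 10 symbols were found, on 11 of the 16266 transcript rows, among 13272 symbols in all, because Spred2 has 2 rows. RNAseq had been done on the whole hippocampus of each of 8 adrenalectomized (ADX) rats aged 3 to 4 months. Of these, 4 received vehicle, 0.45% saline, and 4 received corticosterone-2-hydroxypropyl-Beta-cyclodextrin (CORT) at 0.75 mg/mL in the same saline, each as a 30 min infusion into the jugular vein at zeitgeber time (ZT) 2. Every rat of both groups had lost both adrenal glands, had been kept on a corticosterone drinking solution after surgery, and had been moved to plain saline some hours before the infusion, so the vehicle rats are a model without their own adrenal steroid. The labels name Sprague-Dawley rats and ZT 2, whereas the study's methods name male rats of another strain and a younger age and place collection at ZT 4. The comparison asks which hippocampal transcripts differ shortly after corticosterone returns.

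The MAPK cascade carries signals from growth factor receptors through Ras, Raf and Mek to Erk, which then switches on genes in the nucleus. Among those genes are the cascade's own brakes, so that a signal limits itself. In hippocampal neurons the cascade is known for its part in synaptic plasticity and memory. Dusp proteins remove the activating phosphates from MAP kinases, Spry and Spred proteins act further up, between the receptor and Raf, and Errfi1 (also called Mig6) binds and inhibits the EGF receptor kinase itself. Glucocorticoids are known to induce Dusp1 and Errfi1 in several tissues.

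The authors' deposited table gives 1 FPKM value for each group (sequenced fragments relative to transcript length and to the size of the library) and none for a single rat. Because length is taken into account, levels can be set side by side between genes. No SD, no test between groups and no depth per library can be had from these values, and each difference below is one between 2 group values without a replicate check. A transcript is described as past the threshold when one group was at least 1.5-fold above the other, a log2 ratio of 0.58 or more in size, provided that one or both groups reached 1 FPKM. All 11 rows had that level, as did 15808 rows in all. In a whole hippocampus, fewer cells of a type and less RNA per cell cannot be told apart.

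With CORT, 2 of the 11 rows were at least 1.5-fold higher, Errfi1 and Dusp5, and 1 was at least 1.5-fold lower, Spry2. Among all transcript rows, 4.00% were at least 1.5-fold higher and 4.45% at least 1.5-fold lower. Of these 3 members, Errfi1 alone stood well clear of the threshold, at 1.89-fold. Dusp5 at 1.52-fold and Spry2 at 1.51-fold lay just inside it, and Dusp1 at 1.46-fold lay just outside it. Dusp5 was under the threshold when the ratios were centred on the median of all rows or when both groups were scaled to the same summed FPKM or the same upper quartile. The other 7 rows lay between 1.08-fold and 1.37-fold higher with CORT. In all, 10 of 11 rows had a ratio above 1, against 55.3% of all rows, and the median log2 ratio of the 11 rows was 0.29, against 0.02 over all rows. The lower of the 2 Spred2 rows passed the filter through the CORT group only, so its ratio had to be above 1. With 1 FPKM required in both groups, 10 member rows remained, with a median log2 ratio of 0.27, against 0.02 over all rows. The members were chosen with earlier results of these data known, so such contrasts are descriptions only.

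**Figure D1:**
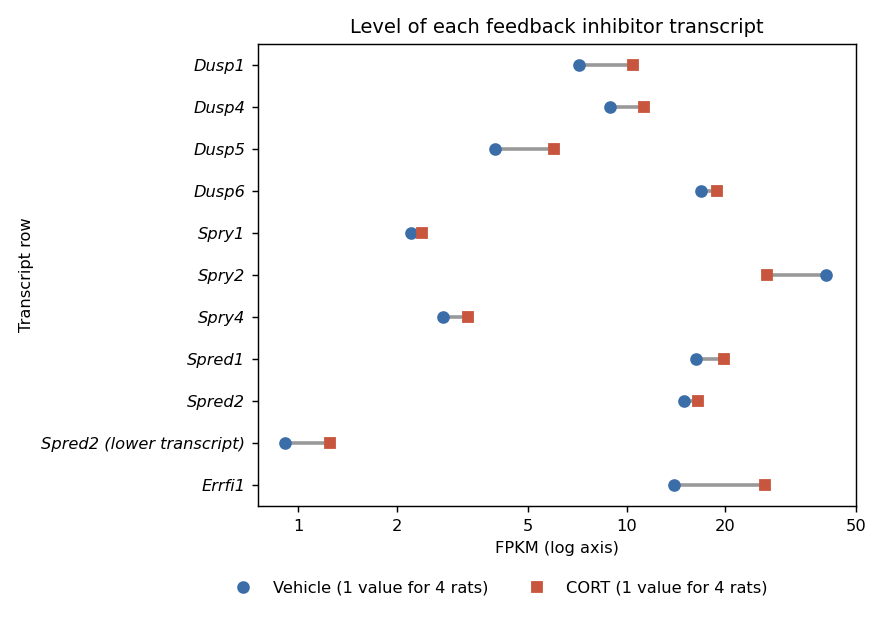
FPKM of each of the 11 transcript rows on a log axis, with circles for the vehicle group value, squares for the CORT group value and a line joining them. The CORT value lies to the right of the vehicle value in 10 rows, with the longest line for Errfi1 (13.9 to 26.3 FPKM), and to the left in Spry2 (40.5 to 26.8 FPKM).

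Errfi1, the inhibitor of the EGF receptor family, had the largest ratio of the 10 genes. Its single row, on chromosome 5 of rn6 between 167952727 and 167966009, was at 13.9 FPKM in vehicle rats and 26.3 FPKM in CORT rats, a log2 ratio of 0.92. The CORT value was thus 12.4 FPKM above the vehicle value. To give this ratio a scale, it was set among the 3233 rows whose mean FPKM was within a factor of 1.5 of that of Errfi1. Of these rows, 31, or 0.959%, had a ratio at least as large in size in either direction, and the central 95% of them had log2 ratios between -0.37 and 0.38. Such a rank describes how common a ratio of that size was between these 2 group values, and it is not an error between rats. Errfi1 made up 10.9% of the summed FPKM of the 10 genes with vehicle and 18.4% with CORT.

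The nuclear phosphatases Dusp1, Dusp4 and Dusp5 are inducible enzymes that act on MAP kinases in the nucleus, Dusp1 on the stress kinases as well as Erk, and Dusp5 on Erk. Dusp5, on chromosome 1 between 274245183 and 274258595, was at 3.97 FPKM without and 6.03 FPKM with corticosterone, a log2 ratio of 0.60. Dusp1, on chromosome 10 between 16970625 and 16973418, was at 7.14 FPKM under vehicle and 10.4 FPKM under CORT, a log2 ratio of 0.55. Dusp4, on chromosome 16 between 61078174 and 61091169, was at 8.88 FPKM in vehicle rats and 11.3 FPKM in CORT rats, a log2 ratio of 0.35. All 3 genes were higher with CORT, and their summed level was 19.99 FPKM without and 27.8 FPKM with corticosterone.

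Dusp6, the cytoplasmic phosphatase for Erk, was the most abundant of the 4 Dusp genes in both groups but had the smallest ratio among them. On chromosome 7 between 41475162 and 41479392, it was at 16.8 FPKM under vehicle and 18.8 FPKM under CORT, a log2 ratio of 0.16. Its share of the summed Dusp FPKM was 45.7% with vehicle and 40.4% with CORT.

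Among rows of similar mean FPKM, 4.33% had a ratio at least as large in size as that of Dusp1, 6.66% as that of Dusp5 and 27.1% as that of Dusp6, and for Dusp4 these were 345 of 3436 rows. The ratio of Dusp1 lay above the central 95% of such rows, which had log2 ratios between -0.51 and 0.50, and 73 of 3369 rows, or 2.17%, had one at least as large in the same direction. That of Dusp5 lay inside its own range, -0.69 to 0.64, and 2.98% of rows had one at least as large in the same direction. Dusp5 had the larger ratio but the lower level of the first pair, and ratios scattered more widely at lower levels.

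**Figure D2:**
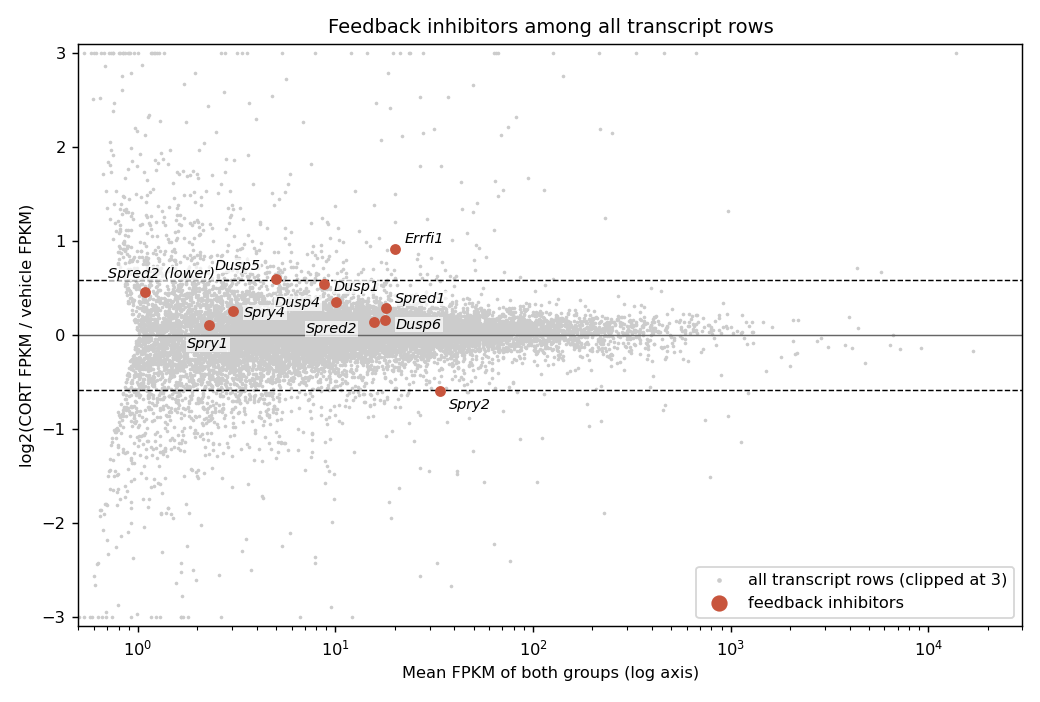
Log2 ratio of CORT over vehicle FPKM against the mean FPKM of both groups (log axis) for all transcript rows with at least 1 FPKM in a group, in grey, and for the 11 feedback inhibitor rows, in red, with dashed lines at 1.5-fold and grey points beyond a log2 ratio of 3 drawn at the edge. Errfi1 lies above the upper line at 0.92 and Spry2 just below the lower line at -0.59, both at levels where most grey points lie close to 0, whereas the lower row of Spred2 lies inside a wide scatter.

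Of the Spry genes, whose proteins restrain receptor tyrosine kinase signalling upstream of Erk, Spry2 differed from the other two in direction and in level. Spry2, on chromosome 15 between 90172974 and 90175802, was at 40.5 FPKM in vehicle rats and 26.8 FPKM in CORT rats, a log2 ratio of -0.59. It was the most abundant of the 10 genes in both groups, and its vehicle level was above that of 84.3% of all rows. Of the 2346 rows of similar mean FPKM, 50, or 2.13%, had a ratio at least as large in size, and 19 of these were in the same direction. With a pseudocount of 1 FPKM added to both groups, the ratio of Spry2 was just under the threshold.

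Spry1, on chromosome 2 between 124400678 and 124405331, was at 2.202 FPKM without and 2.38 FPKM with corticosterone, a log2 ratio of 0.11. Spry4, on chromosome 18 between 32594957 and 32609864, was at 2.77 FPKM under vehicle and 3.30 FPKM under CORT, a log2 ratio of 0.25. Both are low, and at these levels 73.9% of rows had a ratio at least as large in size as that of Spry1, and 40.5% as that of Spry4. Because Spry2 made up 89.1% of the summed Spry FPKM with vehicle and 82.5% with CORT, the sum followed it, from 45.4 FPKM with vehicle to 32.5 FPKM with CORT, a log2 ratio of -0.48.

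The Spred genes encode relatives of Spry that block the activation of Raf and bring the Ras brake neurofibromin to the membrane. Spred1, on chromosome 3 between 108795234 and 108857556, was at 16.2 FPKM in vehicle rats and 19.8 FPKM in CORT rats, a log2 ratio of 0.29. Spred2 has 2 Ensembl transcripts in the table at the same locus, on chromosome 14 between 104191516 and 104290456. Its main transcript was at 14.96 FPKM without and 16.4 FPKM with corticosterone, a log2 ratio of 0.14. Its lower transcript was at 0.911 FPKM under vehicle and 1.251 FPKM under CORT, a log2 ratio of 0.46 that shrank to 0.24 with a pseudocount of 1 FPKM. The lower transcript thus made up 5.74% of the Spred2 FPKM with vehicle and 7.07% with CORT, and how reads were divided between both transcripts rests on the authors' estimate.

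With vehicle, the order of the levels ran from Spry2 through Dusp6, Spred1, Spred2, Errfi1, Dusp4, Dusp1, Dusp5 and Spry4 to Spry1. With CORT, Errfi1 moved from rank 5 to rank 2, at 26.3 FPKM next to the 26.8 FPKM of Spry2, and Dusp6, Spred1 and Spred2 came behind it within 16.4 to 19.8 FPKM. The lower 5 genes kept their ranks. Without a spread between rats, it cannot be said which neighbours in either order differ. The summed FPKM of all 10 genes was 128 with vehicle and 143 with CORT, a log2 ratio of 0.16, and without Spry2 it was 87.8 with vehicle and 116 with CORT, a log2 ratio of 0.40. Spry2 is the only member that was lower, so leaving it out raises the ratio by construction.

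The promoters of Errfi1, Dusp5, Dusp1 and Spry2 are printed because these are the 4 genes at or next to the 1.5-fold threshold. They are the 250 bases before the RefSeq start in GRCr8, a later build than that of the FPKM values, given 5′ to 3′ along the gene. For Spry2, which has 2 RefSeq windows, the one starting further upstream is shown. Capitals mark TGACG or CGTCA, the half-site of the cyclic AMP response element, on either strand.
Errfi1 (GRCr8 chr5:166606591-166606840, plus strand): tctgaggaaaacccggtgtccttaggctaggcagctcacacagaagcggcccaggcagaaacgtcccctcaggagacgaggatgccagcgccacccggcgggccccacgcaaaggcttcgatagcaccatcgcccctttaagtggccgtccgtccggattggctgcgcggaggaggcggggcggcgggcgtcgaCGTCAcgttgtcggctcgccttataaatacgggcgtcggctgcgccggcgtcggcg
Dusp5 (GRCr8 chr1:262543524-262543773, plus strand): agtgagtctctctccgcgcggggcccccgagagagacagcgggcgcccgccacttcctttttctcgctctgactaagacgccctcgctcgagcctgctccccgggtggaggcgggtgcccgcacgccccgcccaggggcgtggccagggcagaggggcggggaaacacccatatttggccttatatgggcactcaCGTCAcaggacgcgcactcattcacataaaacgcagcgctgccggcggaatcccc
Dusp1 (GRCr8 chr10:17184603-17184852, plus strand): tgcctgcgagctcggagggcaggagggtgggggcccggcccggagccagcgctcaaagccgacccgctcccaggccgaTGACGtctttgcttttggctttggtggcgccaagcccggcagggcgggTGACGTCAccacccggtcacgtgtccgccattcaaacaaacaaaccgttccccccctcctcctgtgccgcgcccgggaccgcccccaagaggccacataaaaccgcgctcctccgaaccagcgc
Spry2 (GRCr8 chr15:89111927-89112176, minus strand): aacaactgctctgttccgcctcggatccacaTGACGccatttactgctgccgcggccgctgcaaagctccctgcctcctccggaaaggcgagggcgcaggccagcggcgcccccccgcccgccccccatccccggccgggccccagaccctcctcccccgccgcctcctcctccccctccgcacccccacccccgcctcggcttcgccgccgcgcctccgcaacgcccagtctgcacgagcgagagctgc

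Windows were found for 9 of the 10 genes, 10 windows in all. Dusp4 was not matched. The half-site TGACG or CGTCA was in 5 of the 10 windows, those of Errfi1, Dusp5, Dusp1 and Spred2 and the printed one of Spry2. It was in 18.2% of all 33469 windows of this length and in 26.6% of the 12017 windows whose GC content lay within the members' range of 54.8% to 74.8%. In Errfi1, Dusp5 and Spred2 the match began 56, 55 and 51 bases before the start, and in Spry2 219 bases before it. Dusp1 alone held the whole element, TGACGTCA, in which both half-sites overlap, beginning 124 bases before the start, against 1.59% of all windows and 2.69% of those in the same range of GC content.

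The half-site of the glucocorticoid receptor, AGAACA or TGTTCT, was in none of the 10 member windows, against 17.5% of all windows and 9.64% of those in the same range of GC content. The AP-1 motif, TGACTCA or TGAGTCA, and the Ets motif, CCGGAAG or CTTCCGG, were also in none of the 10 windows, against 4.05% and 7.27% of all windows and 2.94% and 13.3% of those in that range. Both strands were searched for each. A match is a description of letters, and the absence of one covers these 250 bases only.

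The rest of the pathway was described by 7 lists with 100 genes in all. Only 85 of them had a row among the deposited values, and 84 had a transcript with at least 1 FPKM. Each gene was taken by its transcript of highest mean FPKM. Of these 84 genes, 2 were at least 1.5-fold higher with CORT, 2.38% against 1.86% of all genes, and 3 at least 1.5-fold lower, 3.57% against 3.66% of all genes. Both shares are near those of all genes. Their median log2 ratio was 0.05, against 0.29 over the feedback inhibitor rows and 0.02 over all genes.

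**Figure D3:**
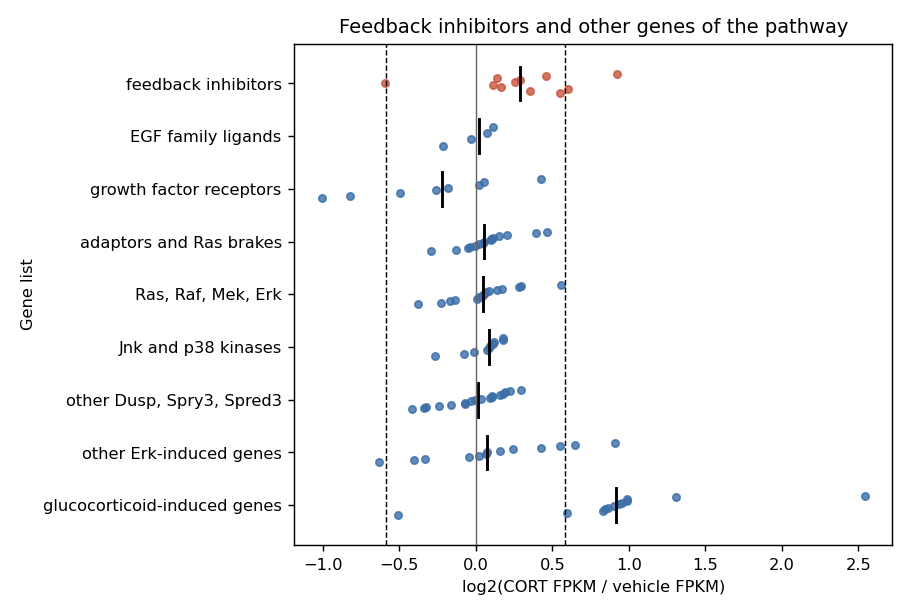
Log2 ratio of CORT over vehicle FPKM for the 11 feedback inhibitor rows (red) and for the genes of 8 further lists (blue), 1 point per gene, with a black bar at each list's median and dashed lines at 1.5-fold. The medians of the 7 pathway lists lie between -0.22 and 0.09, that of the feedback inhibitors at 0.29 and that of the glucocorticoid-induced genes at 0.92.

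Of the EGF family ligands, 4 of 10 had a row, and these 4 passed the filter. None was past the threshold, with log2 ratios from -0.21 to 0.11. Egfr itself, the receptor that Errfi1 inhibits, was at 0.960 FPKM in vehicle rats and 0.990 FPKM in CORT rats, under the filter of 1 FPKM in both groups. Among the 8 receptors that passed it, Kdr, the main receptor for vascular endothelial growth factor, was at 2.60 FPKM without and 1.29 FPKM with corticosterone, a log2 ratio of -1.01. Pdgfrb, the platelet-derived growth factor receptor of pericytes, was at 6.14 FPKM under vehicle and 3.47 FPKM under CORT, a log2 ratio of -0.82. The markers of endothelial cells and of pericytes and smooth muscle, the second of which includes Pdgfrb, were lower with CORT too, with medians of -0.25 over 8 genes and -0.41 over 8 genes, and their part in these receptor ratios was not tested.

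The kinases that the inhibitors act on differed little between the groups. Mapk3, which encodes Erk1, was at 91.6 FPKM without and 93.1 FPKM with corticosterone, a log2 ratio of 0.02. None of the 16 genes for Ras, Raf, Mek, Erk, their scaffolds and the downstream Rsk kinases, of the 15 adaptors and Ras brakes, or of the 10 genes for Jnk and p38 kinases and their activators was past the threshold. The widest ratio in these 3 lists was a log2 ratio of 0.56. Over all genes, 1.86% were at least 1.5-fold higher and 3.66% lower. Lists of 10 to 16 genes could thus hold none without differing from all genes.

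The relatives of the feedback inhibitors had small ratios as well, with the same limit on a count of none. Of 18 further genes, 16 for Dusp phosphatases together with Spry3 and Spred3, none was past the threshold, 9 had a ratio above 1 and 9 below, and the log2 ratios lay between -0.41 and 0.29 with a median of 0.01. By comparison, all 4 Dusp members had a ratio above 1, with a median log2 ratio of 0.45. Since members and lists were chosen with earlier results of these data known, this contrast is a description and lends no support.

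Of 13 other genes known to be induced by Erk, the immediate early genes Fos and Egr1 were at least 1.5-fold higher with CORT. Fos was at 2.87 FPKM under vehicle and 5.38 FPKM under CORT, a log2 ratio of 0.91, and Egr1 was at 20.8 FPKM in vehicle rats and 32.6 FPKM in CORT rats, a log2 ratio of 0.65. With both groups scaled to the same summed FPKM, the log2 ratio of Egr1 was 0.56, under the threshold. Ccnd1, the cyclin that drives entry into the cell cycle, was at least 1.5-fold lower, at 13.9 FPKM without and 8.92 FPKM with corticosterone, a log2 ratio of -0.64. Of the 13, 9 had a ratio above 1 and 4 below, with a median log2 ratio of 0.07. Of all genes, 1.86% were at least 1.5-fold higher, 3.66% at least 1.5-fold lower, and 54.6% had a ratio above 1. With 13 genes, these counts are descriptions only.

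As a scale for the hormone response, 12 genes known to be induced by glucocorticoids were read from the same values. They were listed with their response in these data known, so their direction is a description and lends no support. Of the 12, 11 were at least 1.5-fold higher with CORT, with a median log2 ratio of 0.92 over the 12. The remaining gene, Mt2A, was lower, at 70.5 FPKM under vehicle and 49.5 FPKM under CORT, a log2 ratio of -0.51. Per1 had a log2 ratio of 0.95, Tsc22d3 one of 0.93, Fkbp5 one of 0.86 and Sgk1 one of 1.31. The log2 ratio of Errfi1, 0.92, lay among these values, and those of Dusp5 and Dusp1, 0.60 and 0.55, lay near the 0.60 of Klf9, the smallest of the 11.

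Markers of cell types differed between the groups as well. The tissue was labelled as hippocampus. Of 10 markers of its excitatory neurons 8 had a row, and these 8 passed the filter, with 593 FPKM under vehicle and 667 FPKM under CORT for Camk2a. Their summed level was 1707 FPKM in vehicle rats and 1832 FPKM in CORT rats, and their median log2 ratio was 0.08, with Zbtb20 alone past the threshold at 0.81. Of 12 marker lists, 8 had a median log2 ratio below -0.1, none had one above 0.1, and those of hippocampal neurons, astrocytes, oligodendrocyte precursors and choroid plexus lay between. The astrocyte markers were uneven, with 5 of 10 genes above a log2 ratio of 0 and a median of -0.03. Gfap, the filament protein of astrocytes, was at 970 FPKM under vehicle and 517 FPKM under CORT, a log2 ratio of -0.91, and Aldh1l1 had a log2 ratio of -0.67. The list summed to 3108 FPKM in vehicle rats and 2711 FPKM in CORT rats, and without Gfap to 2138 FPKM with vehicle and 2195 FPKM with CORT.

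Oligodendrocyte markers were lower with CORT in all 10 of 10 genes, with a summed level of 5586 FPKM without and 4620 FPKM with corticosterone and a median log2 ratio of -0.25. Microglial markers were lower in 9 of 10 genes, none of these past the threshold, with a summed level of 296 FPKM under vehicle and 253 FPKM under CORT and a median of -0.27. The exception, Tmem119, was at 5.72 FPKM without and 11.2 FPKM with corticosterone, a log2 ratio of 0.96. Endothelial markers were lower in 7 of 8 genes, with a summed level of 102 FPKM in vehicle rats and 87.3 FPKM in CORT rats, and those of pericytes and smooth muscle in 8 of 8, with 165 FPKM without and 71.1 FPKM with corticosterone. Most of the latter difference came from Tagln, a protein of the smooth muscle cytoskeleton, at 105 FPKM under vehicle and 22.5 FPKM under CORT, and the other 7 genes summed to 59.99 FPKM in vehicle rats and 48.7 FPKM in CORT rats. Spry2, with its log2 ratio of -0.59, was lower as most markers of this paragraph were, whereas the other 9 genes were higher. Other lists were mixed, with a ratio above 1 for 5 of 8 hippocampal neuron, 5 of 10 astrocyte and 4 of 7 oligodendrocyte precursor markers. A shared direction is a description only, and its cause was not tested.

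Markers of the meninges, of the thalamus and habenula, of red blood cells and of the pineal gland had lower medians than these lists. They were -1.15 for meningeal fibroblasts over 9 genes, -1.01 for thalamic and habenular neurons over 7, -0.81 for red blood cells over 4 and -3.86 for the pineal gland over 4. Their summed levels were 135 FPKM under vehicle and 92.4 FPKM under CORT for meningeal fibroblasts, and 54.1 FPKM in vehicle rats and 32.5 FPKM in CORT rats for thalamic and habenular neurons. For red blood cells they were 1419 FPKM without and 812 FPKM with corticosterone, and for the pineal gland 13.7 FPKM under vehicle and 2.86 FPKM under CORT. Of 8 listed pineal genes, only 4 had a row. Of these 4, 3 passed the filter through the vehicle group only, so their ratios had to be low, and the fourth, Rorb, had a log2 ratio of 0.16. The same held for 2 of the 7 thalamic and habenular genes, Chrna3 and Gpr151. No marker in the table was at 0 in both groups. The part of these lists in the level of Spry2, or of any other of the 10 genes, was not tested, and values per rat were not used here.

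**Figure D4:**
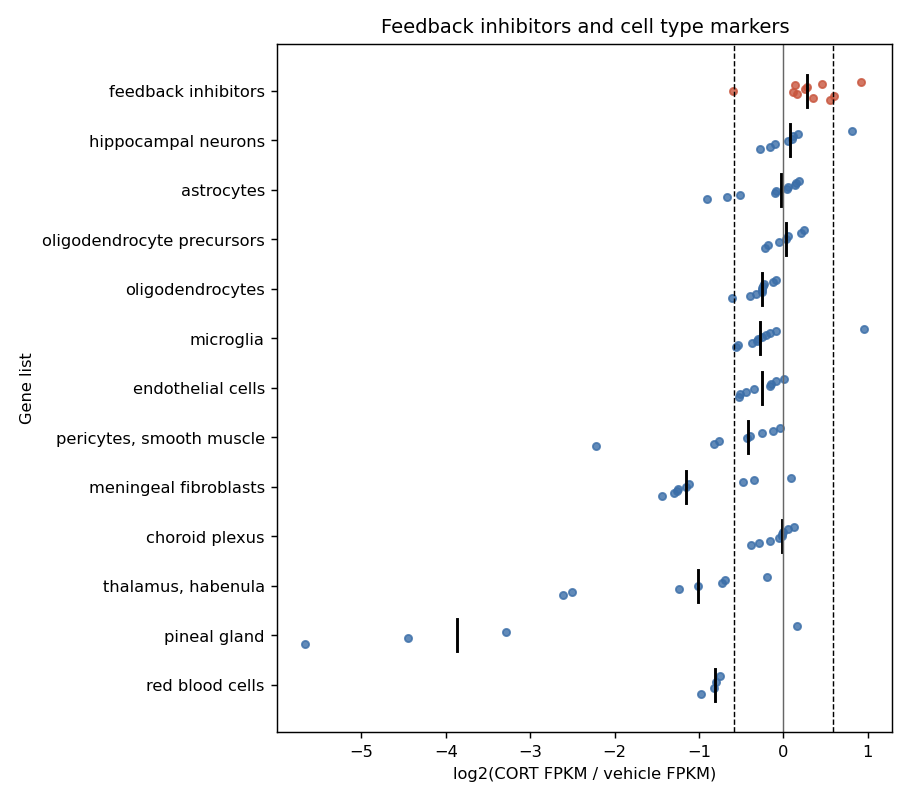
Log2 ratio of CORT over vehicle FPKM for the 11 feedback inhibitor rows (red) and for the genes of 12 cell type marker lists (blue), 1 point per gene, with a black bar at each list's median and dashed lines at 1.5-fold. Of the 12 marker lists, 8 have a median below -0.1, whereas 10 of the 11 feedback inhibitor rows lie to the right of 0.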

How the data were processed

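Hippocampal RNA of 4 vehicle and 4 CORT rats was made into stranded total RNA libraries. The authors aligned reads to rn6 with TopHat2 2.0.10 and estimated the FPKM of each Ensembl transcript with Cufflinks and Cuffdiff 2.2.0, per the labels and the study's methods. They normalized libraries geometrically, corrected for multi-mapped reads, sequence bias and effective length, and removed transcripts under a minimum alignment count of 10. The deposited FPKM is 1 value per group, without depth per library. The other deposited columns hold the authors' fold changes, test statistics, p-values, q-values and calls, and were not used.

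Log2 ratios of CORT over vehicle FPKM were computed without a pseudocount, since no row was at 0. Counts used a 1.5-fold threshold and 1 FPKM in at least one group. Named pathway genes were up to 4 per list past the threshold with the largest ratios, with Egfr, Mapk3, Per1, Fkbp5, Tsc22d3 and Sgk1 always named, and 1 further gene of that rule is not reported here. Klf9 and Mt2A of the glucocorticoid targets, and Camk2a and the other cell type markers, were named after their values were seen. The members and lists were chosen with earlier results of these data known. Counting was tested on simulated data. Promoter sequences are those of RefSeq, build GRCr8. Python 3.11.15, numpy 2.4.6, pandas 2.3.3 and matplotlib 3.10.9 were used.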

Additional observations from a re-analysis of the deposited data

How the results depend on the processing

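Of 12 alternatives, the fold thresholds and filters recompute no ratio. Under the others, pseudocounts, transcript choices and scalings, no log2 ratio of a member changed sign, and 73 of 75 ratios moved by at most 0.1. The exceptions, both with a pseudocount of 1 FPKM, were Dusp5 at 0.50 and the lower transcript of Spred2 at 0.24. The median log2 ratio of the members lay between 0.20 and 0.32. The counts of genes past the threshold depended on it. At a lower threshold, a log2 ratio of 0.32, 5 member rows were higher, against 9.17% of all rows, and 8 pathway genes were higher and 10 lower, or 9.52% and 11.9% against 5.73% and 9% of all genes. These 5 rows include the lower transcript of Spred2, which passed the filter through the CORT group only. At 2-fold, 0 member rows were higher and 0 lower, against 1.78% and 1.77% of all rows, and 0 pathway genes were higher and 1 lower, against 0.624% and 1.31% of all genes. With a pseudocount of 1 FPKM, 1 member row was higher and 0 were lower, against 2.24% and 2.31% of all rows. With that pseudocount 2 pathway genes were lower, 2.38% against 1.84% of all genes. A filter of 5 FPKM also left 2 lower, 3.17% against 1.67% of all genes. Centring on the median, and scaling to the same summed FPKM or the same upper quartile, each left 1 member row higher, Errfi1. In that order, 3.74%, 3.11% and 3.58% of all rows were higher. Scaling to the same summed FPKM left 1 pathway gene higher and 4 lower. These were 1.19% and 4.76%, near the 1.4% and 4.78% of all genes. These settings change the ratios or the threshold by construction. Leaving out each rat in turn was not run, since the values are those of groups. No paired analysis was possible because each group has a single value. Without counts, the lowest detectable level is unknown.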

Other observations

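The genes that neighbour the feedback inhibitors on the rn6 map were read from the same values. Within 250 kb on either side, 21 other genes with at least 1 FPKM lay beside 9 of the 10 members, and Spry2 had none. None of the 21 was past the 1.5-fold threshold in either direction, and their log2 ratios lay between -0.42 and 0.32. Over all genes, 1.86% were at least 1.5-fold higher and 3.66% lower. A set of 21 genes could thus hold none without differing from all genes. Beside Errfi1, with its log2 ratio of 0.92, lies the clock gene Per3, which was at 9.93 FPKM under vehicle and 9.56 FPKM under CORT, a log2 ratio of -0.05. No row of another gene overlapped the locus of a member, so no ratio of a member shares its locus with another gene in the values. Other genes were not examined for overlap.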
